A study of Mus musculus with 9 samples.

Results

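The miR-125 family was followed through 3 mature miRNAs of the mouse, mmu-miR-125a-5p and mmu-miR-125a-3p, the arms of the miR-125a hairpin, and mmu-miR-125b-5p, the 5p arm that the miR-125b-1 and miR-125b-2 hairpins share. They were taken by name, and all 3 were found among the 548 mature miRNAs (of 1825 small RNAs) of the Ago2 table and the 549 mature miRNAs (of 1939 small RNAs) of the Sfpq table. The study sequenced small RNAs that were co-immunoprecipitated with Ago2, the Argonaute protein that carries miRNAs, or with Sfpq, a nuclear RNA-binding protein, and small RNAs of the input extract. Each of the 3 groups, input and the RNA-IPs of Ago2 and Sfpq, had 3 libraries, 9 in all. The labels give the antibody clone 2D4 for Ago2 and the antibodies Ab38148 and B92 for Sfpq, and no library of a control antibody was analysed here. In these data, small RNAs that any antibody or bead would bring down thus cannot be told apart from those bound to Ago2 or Sfpq. By Northern blot or RT-qPCR after RNA-IP, the study reports miR-125b, arm not named, among the miRNAs it found with Sfpq. The labels give no treatment and the same cells for all groups, RAW 264.7, a macrophage-like line, while their source field names a stem cell and the series text names P19, an embryonal carcinoma line. The study's own text places the RNA-IP sequencing in RAW 264.7 cells. All 6 macrophage and myeloid miRNAs of a marker list were present and held 5.44% of the mature miRNA signal of the input, of which miR-21a-5p, a miRNA of many cell types, made up 78.9%. The more cell type restricted miR-142-3p and miR-223-3p had input signals of 846 and 103 in the Ago2 table. Of 8 pluripotent stem cell miRNAs 1 was listed, at a signal of 0 in the input, 0.931 with Ago2 and 2.38 with Sfpq.

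A miRNA hairpin is cut into a duplex of a 5p and a 3p arm, of which one, the guide, is usually retained by Argonaute while the other, the passenger, is discarded. Bases 2 to 8 of the guide, the seed, pair with target mRNAs. The miR-125 family is the vertebrate counterpart of lin-4, the founding miRNA of Caenorhabditis elegans. In mammals it represses Lin28 mRNAs during differentiation, is known from blood cell development, and in macrophages miR-125b acts on the mRNA of the cytokine Tnf.

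The mature sequences are shown with bases 2 to 8 in capitals, since the seed defines the family and the rest of each sequence tells its members apart. They were taken from RefSeq (GRCm38.p6), where every one of these names matched an entry.
miR-125a-5p: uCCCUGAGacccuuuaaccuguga
miR-125b-5p: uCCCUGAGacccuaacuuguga
miR-351-5p: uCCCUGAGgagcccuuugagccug
miR-125a-3p: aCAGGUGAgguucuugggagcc
miR-125b-1-3p: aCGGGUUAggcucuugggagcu
miR-125b-2-3p: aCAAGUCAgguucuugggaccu
The 5p arms of miR-125a and miR-125b were identical over their first 13 bases and differed downstream, with 21 identical positions in the best alignment of 24 and 22 bases. The seed CCCUGAG was found in 5 of the 1679 mature miRNAs of RefSeq, and 3 of these were measured, miR-125a-5p, miR-125b-5p and miR-351-5p. The 3p arms shared no seed with each other or with any other of the 1679 miRNAs, although 18 of 22 positions of miR-125a-3p were identical to miR-125b-1-3p and 18 to miR-125b-2-3p.

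The hairpin of miR-125a is printed with its 5p and 3p arms in capitals, since the ratio of these arms is followed below.
Mir125a: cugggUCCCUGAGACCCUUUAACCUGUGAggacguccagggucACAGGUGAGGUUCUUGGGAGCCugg
In GRCm38 (mm10) the Mir125a hairpin lies on the plus strand at chr17:17830812-17830879 and overlaps an annotated exon of Spaca6. It is the last hairpin of a cluster with Mir99b and Mirlet7e that spans 692 bases, with 367 bases between Mirlet7e and Mir125a. Mir125b-1 lies on the plus strand at chr9:41581926-41582002 in an intron of the noncoding transcript 3110039I08Rik and in an exon of the sense-intronic gene Gm28119. Mir125b-2 lies on the plus strand at chr16:77646273-77646343 in an intron of Mir99ahg, the host transcript of miR-99a, and in an exon of C130023A14Rik. Since both hairpins give the same 5p sequence, the value of miR-125b-5p cannot be divided between the loci.

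The signal is the normalized value of the authors, 1 per group and table for 3 libraries, so that no value has an error between replicates and no test was possible. The input libraries were the same in both tables but were scaled separately, and the input value in the Ago2 table was 1.13 times that in the Sfpq table for each of the 3 miRNAs, as for the median of 298 mature miRNAs. The depth of single libraries is unknown. Low values lie on sums of 3 weights, which sets the fewest and the most reads that a value can stand for. The 95% intervals below are exact binomial intervals (Clopper-Pearson) on the fewest reads, and they cover counting error only, not the spread between libraries.

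miR-125a-5p had the highest signal of the 3 in every group. Its signal was 2159.6 in the input and 2716 with Ago2, and 1905 in the input and 2236 in the Sfpq RNA-IP. These values stand for at least 4180 reads in the input and at least 8315 and 6582 reads in the RNA-IPs. It thus ranked 78 among the mature miRNAs of the input, 81 with Ago2 and 88 with Sfpq.

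miR-125b-5p followed, with 793 in the input and 1217 with Ago2, and 700.4 in the input and 1076 in the Sfpq RNA-IP. Its rank was 113 in the input, 110 and 108 in the RNA-IPs. miR-125a-3p was the lowest, with 684 in the input and 609.8 with Ago2, and 604 in the input and 301 in the Sfpq RNA-IP. The last value stands for 886 to 1178 reads. It ranked 120 in the input, 130 with Ago2 and 153 with Sfpq. In the input miR-125b-5p exceeded miR-125a-3p 1.16-fold (1.08 to 1.25), a gap that was 1.995-fold (1.89 to 2.11) with Ago2 and 3.57-fold (3.32 to 3.85) with Sfpq. As a share of the mature miRNA signal of the input, all 3 were minor, with 0.0350% for miR-125a-5p, 0.0128% for miR-125b-5p and 0.0111% for miR-125a-3p, where the let-7 guide arms held 50.1%.

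**Figure D1:**
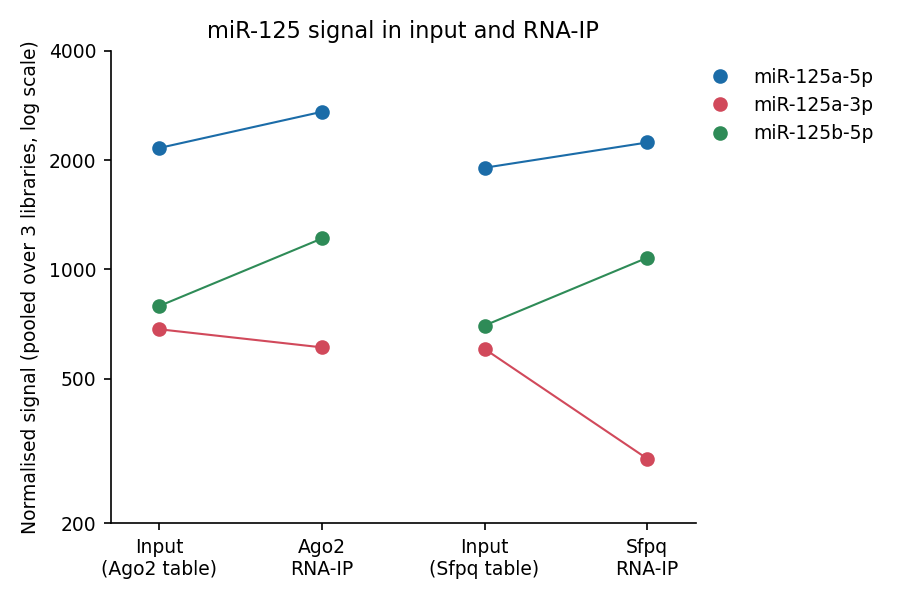
Normalized signal (log scale) of the 3 miR-125 miRNAs in the input and the RNA-IP of each table. Each point is 1 value pooled over 3 libraries, without an error between replicates, and lines join the input and RNA-IP of the same table. miR-125a-3p lies at 604 in the input and 301 in the Sfpq RNA-IP, while both 5p arms lie above their inputs in this scale. That sign turns when shares of the mature miRNA signal are taken, for miR-125b-5p with Ago2 by less than the counting error.

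To set the signal of each miRNA with Ago2 against its input, the log2 ratio of Ago2 RNA-IP over input was computed from these values. In the scale of the authors it was 0.62 for miR-125b-5p (0.53 to 0.70), 0.33 for miR-125a-5p (0.28 to 0.38) and -0.17 for miR-125a-3p (-0.27 to -0.06). Among the 302 mature miRNAs with a mean signal of at least 20 the median was 0.49, with quartiles of -0.15 and 0.98, so that both 5p arms lay between the quartiles and miR-125a-3p just below the lower one. Of these 302 miRNAs 172 had a lower ratio than miR-125b-5p, 121 a lower ratio than miR-125a-5p and 72 a lower ratio than miR-125a-3p. None of the 3 reached a 2-fold difference from the input in either direction. In the background 23.8% of the mature miRNAs were at least 2-fold above and 11.3% at least 2-fold below, and of all 781 small RNAs at this level 16.6% were above and 49.3% below.

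The sign of a small ratio depends on the scaling. The RNA-IP holds more mature miRNA signal than the input in the authors' scale, by 0.64 on the log2 scale for Ago2. As shares of the mature miRNA signal, the log2 ratios were thus -0.02 for miR-125b-5p, -0.31 for miR-125a-5p and -0.80 for miR-125a-3p. This turns the sign of both 5p arms, for miR-125b-5p to a value smaller than its counting error. In that scale 19 of the 302 miRNAs were at least 2-fold above and 60 at least 2-fold below, against 72 and 34 in the scale of the authors. The order of the 3 miRNAs is the same in either scale, since the scale adds 1 constant to all of them.

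The same ratio was computed for Sfpq. The log2 ratio of Sfpq RNA-IP over input was 0.62 for miR-125b-5p (0.53 to 0.71), 0.23 for miR-125a-5p (0.18 to 0.29) and -1.004 for miR-125a-3p (-1.13 to -0.88). The signal of miR-125a-3p in the Sfpq RNA-IP was thus 0.499 times its input, while that of miR-125a-5p, from the other arm of the same hairpin, was 1.17 times its input. The median of 297 mature miRNAs was 0.44, with quartiles of -0.37 and 0.96. Below miR-125b-5p lay 177 of them, below miR-125a-5p 113 and below miR-125a-3p 47, which puts the passenger arm under the lower quartile.

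Of the 3 members 1, miR-125a-3p, was at least 2-fold below the input in the Sfpq RNA-IP, by a margin smaller than its counting error (a pseudocount of 10 gave -0.98), and none was at least 2-fold above. In the background 16.2% of mature miRNAs were at least 2-fold below and 23.6% at least 2-fold above, and of all 777 small RNAs at this level 45.6% were below and 19.0% above. As shares of the mature miRNA signal the log2 ratios were -0.20 for miR-125b-5p, -0.58 for miR-125a-5p and -1.82 for miR-125a-3p, so that here too the sign of both 5p arms turns, and 20 of the 297 miRNAs were at least 2-fold above and 84 below, against 70 and 48. The ratios to Ago2 and to Sfpq share the input libraries and are not independent of each other.

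**Figure D2:**
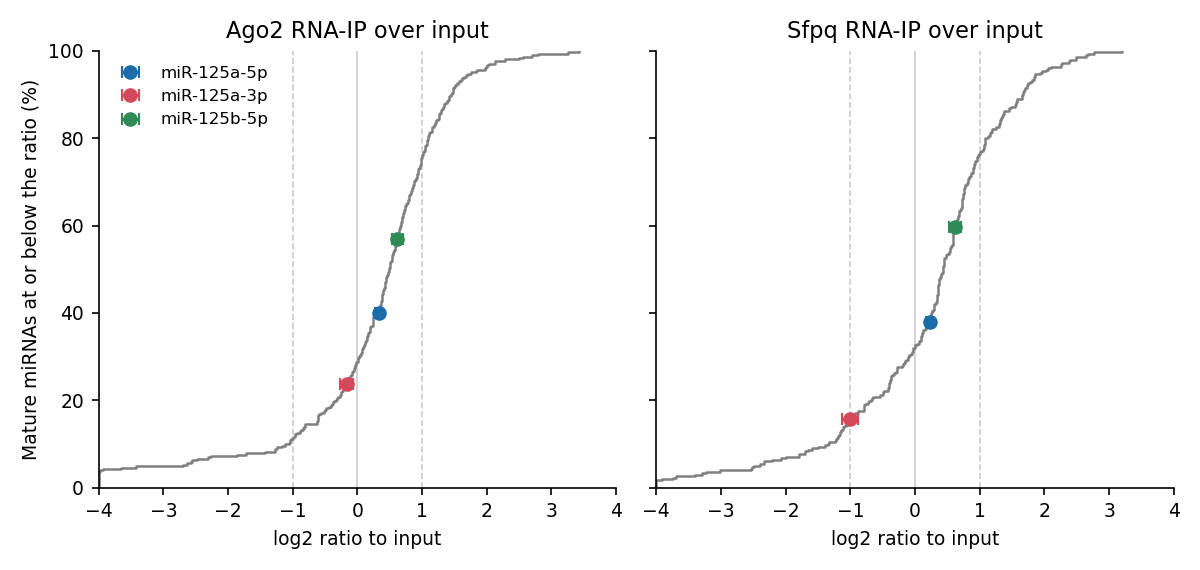
Share of mature miRNAs (mean signal of at least 20) at or below each log2 ratio of RNA-IP over input, for Ago2 (302 miRNAs) and Sfpq (297 miRNAs), as a grey line cut at -4. Coloured points are the 3 miR-125 miRNAs with 95% counting intervals, and dashed lines mark 2-fold. miR-125b-5p lies at 0.62 in both panels, and miR-125a-3p lies at -0.17 with Ago2 and at -1.004 with Sfpq.

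A direct comparison of the RNA-IPs leaves the input out. As a share of the mature miRNA signal, miR-125a-3p held 0.00635% with Ago2 and 0.00313% with Sfpq, a log2 ratio of Sfpq over Ago2 of -1.02 (-1.14 to -0.90). The ratio was -0.28 (-0.33 to -0.24) for miR-125a-5p, at shares of 0.0283% and 0.0233%, and -0.18 (-0.25 to -0.11) for miR-125b-5p, at 0.0127% and 0.0112%. The median of 298 mature miRNAs was also -0.18. miR-125b-5p thus lay on the median, with 151 miRNAs below it, and miR-125a-5p close to it, with 126 below. Only 46 of the 298 lay below miR-125a-3p, and 1 of the 3 members was at least 2-fold lower with Sfpq than with Ago2, against 16.1% of the mature miRNAs. The difference of the ratios to the input was also taken, in the authors' scale. It was -0.84 for miR-125a-3p, -0.10 for miR-125a-5p and 0.00213 for miR-125b-5p. By this measure miR-125a-3p was short of 2-fold, and the sign of miR-125b-5p turned, to a value smaller than the counting error. The measure takes in the separate scaling of the shared input, which was 1.13 times higher in the Ago2 table. As a share, the input of miR-125a-3p was 0.0111% in both tables, so in shares it nearly cancels.

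The arms of miR-125a were then set against each other within each group, where a factor common to a whole column cancels. The weights of the single libraries do not cancel, and the same input libraries gave nearly the same ratio under both sets of weights. miR-125a-5p, the guide, exceeded miR-125a-3p 3.16-fold (2.97 to 3.36) in the input of the Ago2 table and 3.15-fold (2.97 to 3.36) in the input of the Sfpq table. The ratio was 4.45-fold (4.24 to 4.69) with Ago2 and 7.42-fold (6.92 to 7.97) with Sfpq. The 3p arm thus made up 24.1% of the signal of the hairpin in the input, 18.3% with Ago2 and 11.9% with Sfpq. The intervals of the 3 groups do not overlap, but they cover counting error only, and the spread between libraries is unknown.

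The log2 arm ratio of the RNA-IP minus that of the input, here called the 5p shift, was 0.50 with Ago2 and 1.23 with Sfpq. Hairpins were taken where the arm names differ only in 5p and 3p and both arms had a mean of at least 20. Those with an arm named by its locus, such as the miR-125b hairpins, were thus left out. Among the hairpins taken, the median 5p shift was 0.09 over 73 with Ago2 and 0.04 over 69 with Sfpq. A larger one than that of miR-125a was found in 25 and 15 of them. A 5p shift of at least 2-fold was reached by miR-125a with Sfpq and not with Ago2, against 23.3% of the hairpins with Ago2 and 26.1% with Sfpq. Counted toward the arm that is higher in the input, the difference was above 0 in 53 of 73 hairpins with Ago2 and 47 of 69 with Sfpq, at medians of 0.63 and 0.65, and larger than in miR-125a in 38 and 24 of them. This count was added after the values had been seen. The 5p shift of miR-125a was thus of a size seen in many hairpins.

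By the rule for named hairpins, the largest 5p shifts were those of miR-1843b (2.89), miR-374b (2.36) and miR-1839 (2.28) with Ago2, and of miR-340 (3.47), miR-1843b (3.41) and miR-1839 (3.10) with Sfpq. Nearest to miR-125a lay miR-342 (0.53), miR-425 (0.44) and miR-361 (0.42) with Ago2, and miR-330 (1.23), miR-361 (1.26) and let-7e (1.19) with Sfpq. The last of these is encoded in the same cluster as miR-125a.

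**Figure D3:**
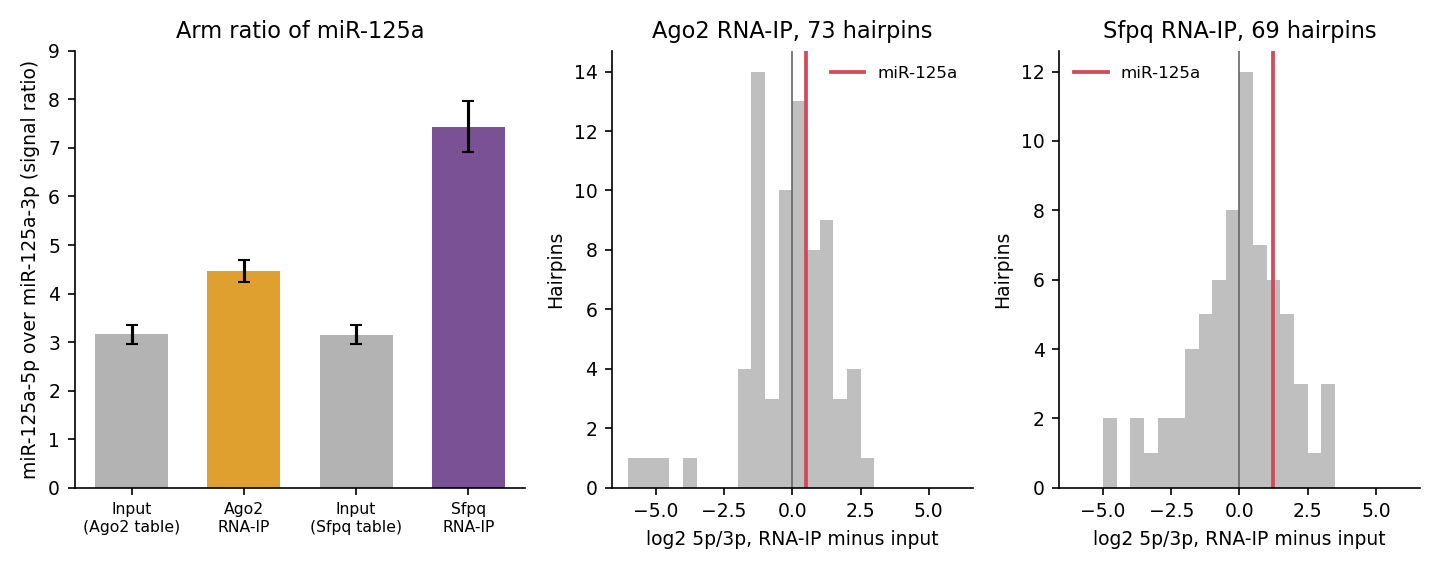
Left, signal of miR-125a-5p over miR-125a-3p in each group, with 95% counting intervals as error bars: 3.16 and 3.15 in the inputs, 4.45 with Ago2 and 7.42 in the Sfpq RNA-IP. Middle and right, numbers of hairpins by the 5p shift, log2 5p over 3p in the RNA-IP minus that in the input (73 hairpins with Ago2, 69 with Sfpq), with miR-125a as a red line at 0.50 and 1.23, inside both distributions. Hairpins with an arm named by its locus are not counted.

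The ratio between the paralogs was lower in both RNA-IPs than in the input. miR-125a-5p exceeded miR-125b-5p 2.72-fold in the input of either table (2.57 to 2.89 in the Ago2 table), 2.23-fold with Ago2 (2.15 to 2.32) and 2.08-fold with Sfpq (1.99 to 2.17). In both RNA-IPs miR-125b-5p thus held a larger part of the pair than in the input, although the seeds of these miRNAs are identical.

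miR-351-5p, a rodent miRNA from chromosome X with the same seed, had the highest signal of the 3 measured miRNAs with CCCUGAG. Its signal was 2937 in the input and 4790 in the Ago2 RNA-IP (log2 ratio 0.71, 0.66 to 0.75), and 2596 and 3312 in the Sfpq table (0.35, 0.30 to 0.40). Taken as shares of the mature miRNA signal, these log2 ratios were 0.07 and -0.46, which turns the sign of the Sfpq ratio. Of the summed signal of the 3 miRNAs with this seed, miR-351-5p held 49.9% of the input, 54.9% with Ago2 and 50.01% with Sfpq. miR-125a-5p held 36.7%, 31.1% and 33.7%, and miR-125b-5p held 13.5%, 13.9% and 16.2%. The miRNAs that share this seed together made up 0.0954% of the mature miRNA signal of the input, 0.0908% with Ago2 and 0.0689% with Sfpq.

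The 3p arms of the miR-125b hairpins, unlike the shared 5p arm, can be assigned to their loci. miR-125b-2-3p had 4765 in the input and 7886 with Ago2, and 4217 in the input and 4981 in the Sfpq RNA-IP. It was 6.01 times miR-125b-5p in the input, 6.48 times with Ago2 and 4.63 times with Sfpq. The arm generally taken as the passenger thus had the higher signal, whereas in miR-125a the 5p arm had it. These ratios compare different sequences, and adapter ligation bias between them is not known, so they need not equal the ratio of molecules. miR-125b-1-3p was far lower, with 363 and 359 in the Ago2 table and 319 and 359.8 in the Sfpq table, so that the arm from chromosome 16 exceeded the arm from chromosome 9 13.1-fold in the input, 22.0-fold with Ago2 and 13.8-fold with Sfpq. With Ago2 the log2 ratios to the input were 0.73 (0.69 to 0.76) for miR-125b-2-3p and -0.02 (-0.15 to 0.12) for miR-125b-1-3p. With Sfpq they were 0.24 (0.20 to 0.28) and 0.17 (0.03 to 0.31). As shares of the mature miRNA signal, they were 0.09 and -0.65 with Ago2 and -0.58 and -0.64 with Sfpq, which turns the sign of both Sfpq ratios. Of the 3p arms of the miR-125a and miR-125b hairpins, that of miR-125a was thus the lowest against its input with Sfpq, while with Ago2 its interval overlapped that of miR-125b-1-3p.

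The clusters of Mir125a, Mir125b-1 and Mir125b-2 also encode members of the miR-99/100 family, which is known to repress Mtor, and of the let-7 family, which represses growth and cell cycle genes. Of the 16 relatives listed by name (arms, same seed and cluster partners) 15 were in each table. Among the 13 with a mean of at least 20, 1 was at least 2-fold above the input and 1 at least 2-fold below with each of Ago2 and Sfpq, miR-99b-3p and let-7c-1-3p, at list medians of 0.48 with Ago2 and 0.24 with Sfpq beside 0.49 and 0.44 for all mature miRNAs. Over all mature miRNAs 23.8% were at least 2-fold above and 11.3% below with Ago2, and 23.6% and 16.2% with Sfpq. As shares of the mature miRNA signal, 0 of the 13 relatives were at least 2-fold above the input with either protein. At least 2-fold below were then 2 with Ago2, let-7e-3p (-1.64) and let-7c-1-3p (-2.90), and 4 with Sfpq, let-7e-3p (-1.58), let-7c-1-3p (-2.61), miR-99b-5p (-1.52) and miR-100-5p (-1.22). In that scale 19 of all 302 mature miRNAs were at least 2-fold above and 60 below with Ago2. With Sfpq these counts were 20 and 84 of 297. Within the cluster of miR-125a, let-7e-5p was at 0.41 with Ago2 and 0.43 with Sfpq, with signals of 42158 and 37645 in the RNA-IPs. miR-99b-5p was at 0.14 and -0.71, from 16557 and 8132 in the RNA-IPs against 15020 and 13286 in the inputs.

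The 5p shifts of this cluster had opposite signs. miR-99b-3p, the minor arm of its hairpin, was at 1.18 (1.10 to 1.25) with Ago2 and 1.37 (1.29 to 1.45) with Sfpq. The 5p shift of miR-99b was -1.04 with Ago2 and -2.08 with Sfpq. That of let-7e, whose 3p arm stands for at least 93 reads with Ago2 and 94 with Sfpq, was 1.41 and 1.19. In the clusters of miR-125b, miR-100-5p was at 0.73 with Ago2 and -0.40 with Sfpq, and miR-99a-5p at 0.81 and -0.11. let-7a-5p (0.46 and 0.43) and let-7c-5p (0.48 and 0.44), which arise from further hairpins as well, were near the median of all mature miRNAs. As shares of the mature miRNA signal miR-99b-3p was still above the input (0.54 and 0.55), whereas let-7e-5p (-0.23 and -0.39), let-7a-5p (-0.18 and -0.38) and let-7c-5p (-0.16 and -0.38) were below it, as was miR-99b-5p (-0.50 with Ago2 and -1.52 with Sfpq). In that scale miR-100-5p was at 0.09 and -1.22, and miR-99a-5p at 0.17 and -0.93. The 5p arms of the miR-99/100 family were thus lower with Sfpq than with Ago2, at log2 ratios of the shares of -1.03 for miR-99b-5p, -1.10 for miR-99a-5p and -1.31 for miR-100-5p, values like the -1.02 of miR-125a-3p, while their cluster partners miR-125a-5p and miR-125b-5p were at -0.28 and -0.18. miR-99b-5p, miR-99a-5p and miR-100-5p are counted in the 16.1% of mature miRNAs given above. As the difference of the authors' scale ratios to the input, miR-99b-5p and miR-99a-5p, like miR-125a-3p, were short of 2-fold, whereas miR-100-5p was not.

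**Figure D4:**
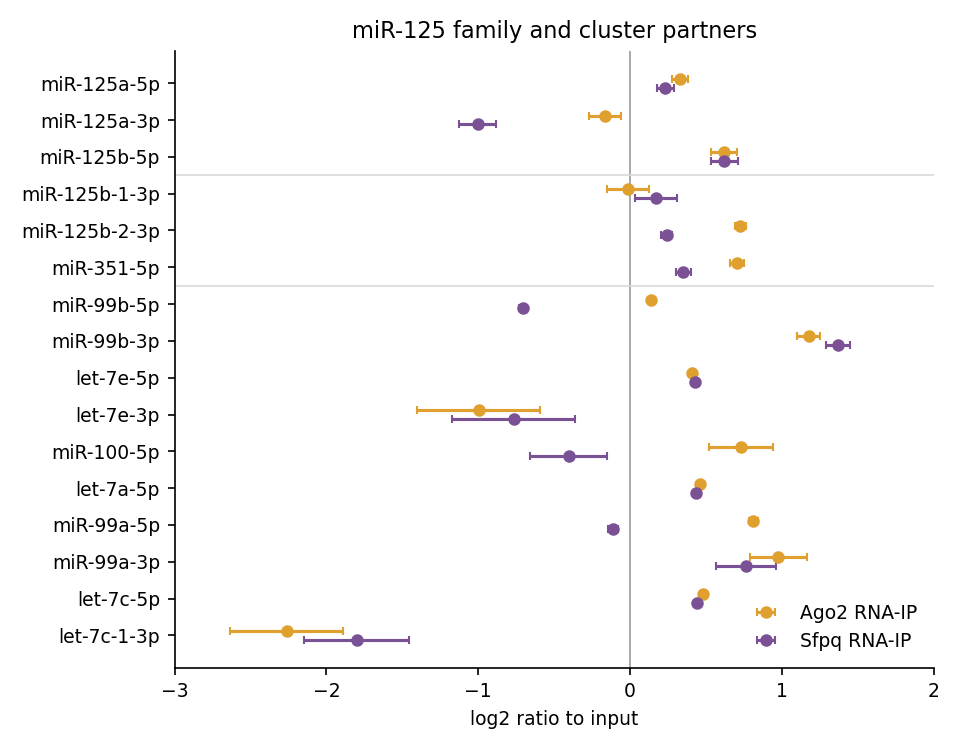
log2 ratio of RNA-IP over input in the authors' scale for the 3 miR-125 miRNAs (top), the other arms and miR-351-5p (middle) and cluster partners with a mean of at least 20 (bottom). Orange points are Ago2 and purple points Sfpq, with 95% counting intervals that do not include the spread between libraries. The points of miR-125a-3p (-0.17 and -1.004) and of miR-99b-5p (0.14 and -0.71) lie apart, those of miR-125b-5p (both 0.62) coincide.

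The mature miRNAs most like each member were found by the distance between their pairs of log2 ratios (Ago2 and Sfpq over input) among 289 miRNAs, which rests on 2 values that share an input. For miR-125b-5p these were miR-221-3p (0.59 with Ago2 and 0.65 with Sfpq), miR-30d-3p (0.55 and 0.65) and miR-374b-5p (0.63 and 0.73). For miR-125a-5p they were let-7k (0.24 and 0.28), miR-200c-3p (0.39 and 0.33) and miR-503-5p (0.40 and 0.33). For miR-125a-3p they were miR-505-5p (-0.26 and -1.02), miR-342-3p (-0.16 and -1.10) and miR-5113 (-0.22 and -1.11). miR-342-3p, like miR-125a-3p, was the lower arm of its hairpin in the input, with 322 against 1177 for miR-342-5p.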

How the data were processed

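The labels name miRNeasy columns for RNA extraction and the NEBNext kit for the libraries, whereas the study's methods name Trizol with Qiagen columns and a CleanTag kit, so adapter ligation bias between miRNAs is not known. The methods state sequencing on a SOLiD instrument and name both the LifeScope pipeline and omiRas for mapping, the latter also for normalization and comparison with the input, while cutadapt and mm10 are listed by the submitters' processing notes. Which step made the deposited values is not given in the sources used here. The authors deposited 2 tables with 1 normalized signal per small RNA and group, pooled over the 3 libraries of the group. Columns with the authors' ratios, p-values and false discovery rates, and their lists of selected RNAs, were not used.

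Within a tolerance of 0.0005, 100% of the values under 2 (364 to 445 per column) were whole-number sums of 3 weights, which cover 2.25% to 6.46% of that range. Averaging 3 libraries after scaling each one would give such sums. The fewest reads behind a value are the value over the largest weight. PCR reads without molecular identifiers are not independent molecules.

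Ratios were computed with Python 3.11.15, pandas 2.3.3, NumPy 2.4.6, SciPy 1.17.1 and Biopython 1.88, without a pseudocount, and plotted with matplotlib 3.10.9. The background was the miRNAs with a mean of RNA-IP and input of at least 20, called at 2-fold. Named miRNAs were the 3 members, relatives listed by name, the 3 nearest miRNAs per member, and the 3 hairpins with the largest and nearest 5p shifts. Members, lists and rules were chosen with earlier results of these data known. Functions were tested on simulated data. Alternatives were pseudocounts of 1 and 10, other scalings and no filter.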

Additional observations from a re-analysis of the deposited data

How the results depend on the processing

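No paired analysis was possible because each group has 1 pooled value, and leaving out replicates was not run for the same reason. Of 80 alternative values 41 stayed within the counting interval (counts within 1.5 times) and 39 moved. The sign turned in 14 of the 80, all of them log2 ratios of the 5p arms under another scaling, and in 0 of those whose main value was past 2-fold. Some turned values were smaller than the counting error, such as -0.0205 for miR-125b-5p with Ago2 as a share of the mature miRNA signal. Pseudocounts of 1 and 10 moved none beyond the counting interval. With 10, however, the log2 ratios of miR-125a-3p to the Sfpq input (-0.98) and of Sfpq over Ago2 (-0.995) fell short of 2-fold.

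The scaling moved every log2 ratio to the input. In the order miR-125a-5p, miR-125a-3p and miR-125b-5p, the ratios with Ago2 became -0.31, -0.80 and -0.0205 as shares of the mature miRNA signal, -0.10, -0.59 and 0.19 as shares of all small RNA signal, and -0.16, -0.66 and 0.12 centred on the miRNA median. With Sfpq they became -0.58, -1.82 and -0.20, then -0.40, -1.63 and -0.00719, then -0.21, -1.44 and 0.18. Without let-7 in the sum, a choice made after the data were seen, the shares gave -0.38, -0.88 and -0.10 with Ago2 and -0.67, -1.90 and -0.28 with Sfpq. As the difference of the authors' scale ratios to the input, the log2 ratio of Sfpq over Ago2 became -0.10, -0.84 and 0.00213. miR-125a-3p was then no longer 2-fold lower.

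Without the filter, 162 mature miRNAs were at least 2-fold above and 106 below the input with Ago2, of 548 listed. With Sfpq 159 were above and 127 below, of 549 listed. With the filter these counts were 72, 34, 70 and 48. The unfiltered counts take in very low signals. A signal of 0 in 1 column only counted as past 2-fold, as for miR-100-3p with Sfpq (0 against 1.85 in the input). With the filter kept, the counts as shares of the miRNA signal were 19, 60, 20 and 84, of 302 mature miRNAs with Ago2 and 297 with Sfpq. Over all small RNAs, also with the filter, they were 130, 385, 148 and 354, of 781 with Ago2 and 777 with Sfpq.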
